A study of Mus musculus with 8 samples.

Results

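The 9 genes described here belong to interferon signalling. They are the receptor chains Ifnar1 and Ifnar2, the receptor kinase Tyk2, the signal transducer Stat2 and the interferon regulatory factors (IRFs) Irf1, Irf3, Irf7, Irf8 and Irf9. They were chosen by name from the 30627 genes measured on the array, and all 9 had a probe set of their own (Irf1 had 2, of which the brighter was used). Liver RNA came from 8 male C57BL/6 mice, all kept on high fat food for 13 weeks as a model of diet-induced hypercholesterolemia. Of these, 4 were treated with anti-miR-128-3p, which blocks the microRNA miR-128-3p, in 5 intraperitoneal doses, and 4 were controls. The labels call the control injection a vehicle in some fields and only a control in others, and 1 protocol field names the microRNA itself where the titles name its inhibitor. The sources used here do not give the dose, the timing of the injections or the age of the mice. The comparison asks how inhibition of this microRNA changes gene expression in the liver under the diet. If the controls were given a vehicle only, blocking miR-128-3p and receiving the inhibitor compound as such cannot be told apart. Values are log2 signals made by RMA (robust multi-array average, which corrects background, equalises the arrays and summarises the probes of each set).

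In most cells, interferon alpha or beta bridges IFNAR1 and IFNAR2, which activates the kinases TYK2 and JAK1 bound to the receptor tails. These phosphorylate STAT2, which joins IRF9 in ISGF3, the factor that binds interferon-stimulated response elements and switches on antiviral genes. IRF3 and IRF7 act upstream, inducing interferon genes after viral sensing, and IRF7 is itself an interferon-induced gene. IRF1 is induced mainly by interferon gamma, and IRF8 is a factor of macrophages, dendritic cells and B cells. In the liver, hepatocytes, Kupffer cells and endothelial cells all carry the type I receptor.

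The inhibited microRNA is shown first, since it defines the treatment, with the seed (bases 2 to 8, the part that pairs with targets) in capitals, from RefSeq (GRCm38.p6).
mmu-miR-128-3p: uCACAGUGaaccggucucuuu
The promoters below belong to Stat2, Irf9 and Irf7, higher in every treated liver than in any control, and to Irf1, higher on average with overlapping groups, and show where elements for interferon-activated factors lie. Each is the 250 bases before a RefSeq start site (GRCm38.p6), written in the direction of the gene. Capitals mark matches to the response element of ISGF3 and the IRFs (searched as GAAA, any 2 bases, GAAA) in Stat2 and to the STAT element GAS (searched as TTC, any 3 bases, GAA) in Irf1, and those of Irf9 and Irf7 have neither. For Irf9 and for Irf1, the first of 2 windows along the chromosome is printed, and the second window of each has neither match.
Stat2, chr10:128270248-128270497, plus strand: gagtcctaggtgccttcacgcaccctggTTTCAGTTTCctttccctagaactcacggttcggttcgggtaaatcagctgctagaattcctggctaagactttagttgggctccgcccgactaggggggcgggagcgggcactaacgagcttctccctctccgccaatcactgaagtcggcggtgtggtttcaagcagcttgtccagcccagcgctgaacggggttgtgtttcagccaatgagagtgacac
Irf9, chr14:55603735-55603984, plus strand: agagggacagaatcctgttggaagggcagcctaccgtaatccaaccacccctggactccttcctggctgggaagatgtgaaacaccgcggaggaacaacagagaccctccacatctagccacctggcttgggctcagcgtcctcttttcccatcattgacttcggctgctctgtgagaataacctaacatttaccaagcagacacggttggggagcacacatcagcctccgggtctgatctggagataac
Irf1, chr11:53769764-53770013, plus strand: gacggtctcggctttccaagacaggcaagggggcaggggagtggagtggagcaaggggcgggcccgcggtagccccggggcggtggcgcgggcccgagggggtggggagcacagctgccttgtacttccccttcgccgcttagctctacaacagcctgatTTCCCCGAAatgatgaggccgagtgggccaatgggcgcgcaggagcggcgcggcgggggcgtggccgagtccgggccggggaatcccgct
Irf7, chr7:141266425-141266674, minus strand: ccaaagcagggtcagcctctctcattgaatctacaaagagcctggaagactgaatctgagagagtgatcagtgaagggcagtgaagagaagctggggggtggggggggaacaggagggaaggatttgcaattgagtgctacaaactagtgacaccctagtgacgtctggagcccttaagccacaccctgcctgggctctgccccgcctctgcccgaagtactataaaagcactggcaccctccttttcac
All 9 genes matched the RefSeq table, with 12 windows of 300 bases (250 before to 50 after the start). Both motifs were searched on both strands, GAS reads the same on either strand, and no 2 matches in these windows overlapped. The response element was found in 1 of the 12 windows (8.33%), that of Stat2, 222 bases before the start site. Of the 32851 promoters of the table, 3.44% held it. GAS was found in 4 of the 12 windows (33.3%), 1 each of Irf1, Irf8, Ifnar1 and Ifnar2, against 8.30% of all promoters. In Irf1 it lay 90 bases before the start. A match is a description of these letters and not a measured binding site, and windows without one can hold other forms of the element.

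Among the 9 genes, Irf7, Irf9 and Stat2 were higher in every treated liver than in any control liver, while in the other 6 the groups overlapped. Of these 6, Irf1 was higher (log2 difference 0.38) and Ifnar1 lower (-0.19), and Ifnar2, Tyk2, Irf3 and Irf8 differed by 0.10 or less in either direction. Irf7 differed most, by 2.88-fold. With p-values adjusted over all 30627 genes, limma (a linear model with variance moderated across genes) called none of the 9 at 0.05, and it called 0 of all genes (0%), the smallest adjusted p being 0.194. At an unadjusted p under 0.05 there were 5 of the 9 genes, 4 higher and 1 lower, against 7.63% of all genes (2337), 4.26% in the upward and 3.37% in the downward direction. In 3 of the 9, all higher, no treated liver lay within the control range or below it, against 2.52% of all genes for that direction, 1.89% for the other and 4.41% for either. By any amount, 7 of the 9 were higher, against 49.1% of all genes. The median log2 difference of the 9 was 0.10, beside 0.00 (-0.0017) for all genes. The 95th percentile of the negative control rows ran from 7.40 to 7.53 over the arrays. Irf8 and Tyk2 lay below that of their array in all 8 livers, and Irf9 and Irf1 did in all 4 controls. Irf9 also lay below it in treated livers 1, 2 and 4, and Irf1 in treated liver 3. Irf7 lay below it in control livers 1 and 3, and Irf3 in control liver 1 and treated livers 1, 3 and 4. In these livers their signal is not clear of the brightest negative controls. In a whole liver, more cells that express a gene and more RNA per cell cannot be told apart.

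**Figure D1:**
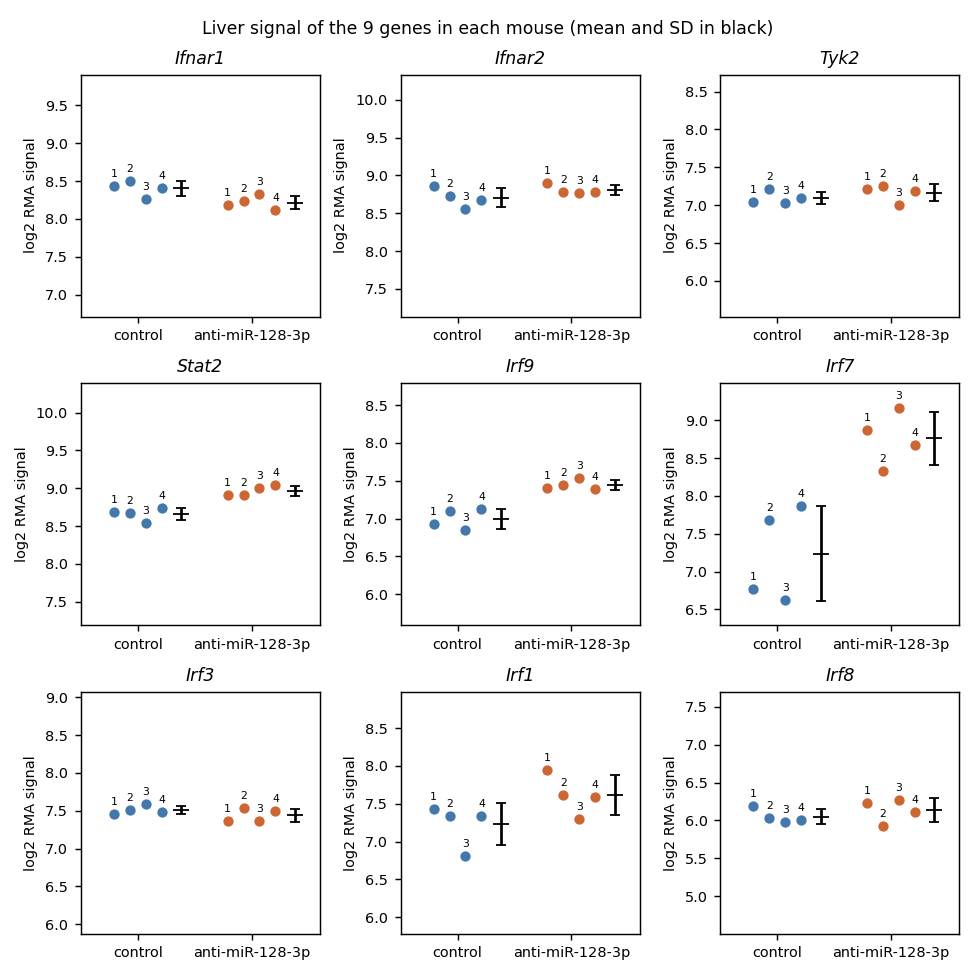
Log2 RMA signal of each gene in the 4 control (blue) and 4 treated (orange) livers, numbered by mouse, with group mean and SD in black. All panels span the same height, so distances can be compared between genes: Irf7, Irf9 and Stat2 show no overlap between groups, and Irf7 spreads most.

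The receptor and its kinase come first. IFNAR1 is the chain that holds TYK2 and is needed for signalling. Ifnar1 was at 8.44, 8.50, 8.26 and 8.40 in control livers 1 to 4 and at 8.19, 8.23, 8.33 and 8.11 in treated livers 1 to 4. It was the one gene of the 9 with an unadjusted p under 0.05 that was lower in treated livers. Of the treated livers, 3 lay below every control, while treated liver 3 lay above control liver 3. The log2 difference, treated minus control, was -0.19 ± 0.07 (SE, n = 4 each, 95% interval -0.34 to -0.04, limma adjusted p = 0.549). Without control liver 3 the difference was -0.23, without treated liver 3 it was -0.22, and in both cases the groups no longer overlapped. It was -0.15 without control liver 2 or treated liver 4, and the unadjusted limma p was then above 0.05.

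IFNAR2 is the chain that binds interferon with high affinity and carries STAT2. Ifnar2 was at 8.86, 8.73, 8.56 and 8.68 in the controls and at 8.90, 8.77, 8.76 and 8.78 in the treated livers. The groups overlapped, and treated liver 1 lay above the other 3, which were at nearly the same level. The log2 difference was 0.10 ± 0.07 (adjusted p = 0.813 by limma), and its 95% interval, from -0.06 to 0.25, reaches a 1.19-fold higher level. It was 0.05 without control liver 3 and 0.15 without control liver 1, where the groups no longer overlapped and the unadjusted limma p was under 0.05. The log2 signal of Ifnar1 minus that of Ifnar2, taken within each liver, ran from -0.42 to -0.23 in controls and from -0.72 to -0.44 in treated livers. That shift of -0.28 had an exact two-sided permutation p of 0.0286, the smallest that 4 against 4 can give. Adjusted over the 3 pairs of genes compared in this way, the permutation p was 0.0429. Another of these pairs, Irf7 minus Irf3, had the same unadjusted p, which followed from the separation of Irf7. That tie lowers the adjusted value, which is therefore given as a description. The shift is thus a description of these livers, and it does not tell which of the 2 chains moved.

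On chromosome 16, Ifnar2, Il10rb, Ifnar1 and Ifngr2 follow each other among the protein-coding genes of the RefSeq assembly. Il10rb, a chain of the receptors for interleukin 10 and interferon lambda, differed by 0.14 ± 0.10 and Ifngr2, a chain of the interferon gamma receptor, by 0.11 ± 0.06 (log2 difference ± SE). Ifnar1 was the only one of the 4 that was lower.

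TYK2 is the kinase bound to IFNAR1. Tyk2 was at 7.04, 7.21, 7.03 and 7.10 in the controls and at 7.22, 7.25, 7.0003 and 7.18 in the treated livers. Treated liver 3 was the lowest of all 8 and the groups overlapped. The log2 difference was 0.07 ± 0.07 (95% interval -0.08 to 0.22, limma adjusted p = 0.879), and it was 0.04 without treated liver 2 and 0.12 without treated liver 3. The other kinase of the receptor, Jak1, differed by -0.06 ± 0.05.

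The next 2 genes encode subunits of ISGF3. STAT2 supplies its transactivation domain. Stat2 was at 8.69, 8.67, 8.54 and 8.74 in the controls and at 8.91, 8.91, 8.997 and 9.04 in the treated livers. Both groups were tight, and the lowest treated liver was 0.17 above the highest control. Stat2 was 1.23-fold higher (log2 difference 0.30 ± 0.06, 95% interval 0.18 to 0.43, limma adjusted p = 0.206), which ranked 63 among all genes by p. With any 1 liver left out the difference stayed between 0.26 and 0.33 and the groups did not overlap.

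IRF9 is the DNA-binding subunit of ISGF3. Irf9 was at 6.92, 7.10, 6.85 and 7.12 in the controls and at 7.40, 7.45, 7.53 and 7.39 in the treated livers. The lowest treated liver was 0.27 above the highest control, a gap about as wide as the whole control range of 0.27. Irf9 was 1.36-fold higher (log2 difference 0.44 ± 0.07, 95% interval 0.28 to 0.61, limma adjusted p = 0.194) and ranked 22 by p. The difference ran from 0.39 without control liver 3 to 0.48 without control liver 4. Within each liver, Irf9 minus Stat2 ran from -1.77 to -1.57 in controls and from -1.65 to -1.46 in treated livers, a shift of 0.14 (exact two-sided permutation p = 0.0857, also 0.0857 after adjustment over the 3 pairs).

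IRF7 and IRF3 are close relatives that switch on interferon genes. IRF7 is kept at a low level until interferon induces it, whereas IRF3 is made constantly and waits in the cytoplasm. Irf7 was at 6.77, 7.69, 6.62 and 7.87 in the controls and at 8.88, 8.33, 9.16 and 8.68 in the treated livers. It was high in treated liver 3 and low in control livers 1 and 3, and the controls alone spanned 1.25 log2 units. The lowest treated liver, liver 2, was still 0.47 above the highest control, liver 4. The log2 difference was 1.52 ± 0.30 (2.88-fold, 95% interval 1.80-fold to 4.59-fold, limma adjusted p = 0.208). It was 1.32 without control liver 3 and 1.73 without control liver 4, and no liver left out made the groups overlap. Irf7 had the largest difference of the 9 but ranked 96 by p, behind Irf9 and Stat2, whose livers lay closer together.

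The constant relative, Irf3, was at 7.46, 7.51, 7.59 and 7.49 in the controls and at 7.37, 7.54, 7.36 and 7.49 in the treated livers. Treated livers 1 and 3 were the 2 lowest, and the other 2 lay among the controls. The log2 difference was -0.07 ± 0.06 (95% interval -0.20 to 0.06, limma adjusted p = 0.839), from -0.10 without treated liver 2 to -0.05 without treated liver 3. Within each liver, Irf7 minus Irf3 ran from -0.97 to 0.38 in controls and from 0.80 to 1.80 in treated livers, a shift of 1.596, which follows from the separation of Irf7 and the narrow range of Irf3 and is given as a description.

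IRF1 is a fast activator of antigen presentation and interferon gamma genes. Irf1 was at 7.43, 7.33, 6.81 and 7.34 in the controls and at 7.95, 7.61, 7.30 and 7.58 in the treated livers. Of the treated livers, 3 lay above every control, while treated liver 3, the highest for Irf7 and Irf9, was the lowest for Irf1. The log2 difference was 0.38 ± 0.16 (1.30-fold, 95% interval 0.02 to 0.75, limma adjusted p = 0.629). It was 0.25 without control liver 3, the lowest of the 8, 0.27 without treated liver 1 and 0.49 without treated liver 3, where the groups no longer overlapped. The unadjusted limma p was above 0.05 without any one of control livers 2 and 3 and treated livers 1, 2 and 4. The second, dimmer probe set assigned to Irf1 averaged 4.45 in the controls and 4.49 after treatment, close to the medians of the negative control rows (4.32 to 4.48), and with the mean of both probe sets the difference was 0.21.

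IRF8 is made mainly by myeloid and B cells. Irf8 was at 6.19, 6.04, 5.97 and 6.00 in the controls and at 6.23, 5.93, 6.27 and 6.11 in the treated livers. The groups overlapped, with treated liver 2 the lowest of all. The log2 difference was 0.08 ± 0.08 (95% interval -0.10 to 0.27, limma adjusted p = 0.879), and it was 0.15 without treated liver 2 and 0.04 without treated liver 3.

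**Figure D2:**
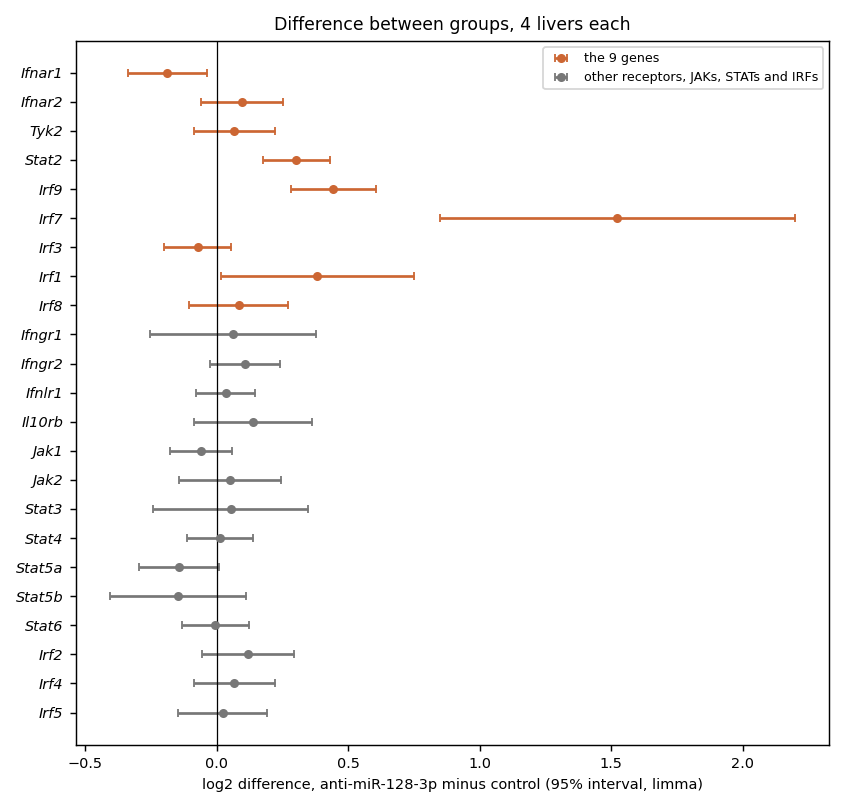
Log2 difference (treated minus control, 4 livers each) with its 95% interval from limma, for the 9 genes (orange) and for the other receptors, JAKs, STATs and IRFs measured (grey). The intervals of Irf7, Irf9, Stat2 and Irf1 lie above 0 and that of Ifnar1 below it, whereas the grey intervals all include 0; none passed adjustment over all genes.

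Relatives outside the 9 genes were counted in the same way. Of 11 other receptor chains, Janus kinases and STATs measured (12 listed), 7 were higher and 4 lower, with log2 differences from -0.15 to 0.14 and a median of 0.03, and 0 had an unadjusted p under 0.05 by limma. Stat5a (-0.14 ± 0.07) and Stat5b (-0.15 ± 0.11), which serve growth hormone in the liver, were the furthest down. Of 3 other IRFs measured (4 listed), Irf2, a repressor that competes with IRF1, differed by 0.12 ± 0.08, the lymphoid factor Irf4 by 0.07 ± 0.07 and the inflammatory factor Irf5 by 0.02 ± 0.07. These sizes overlap with those of Ifnar2, Tyk2, Irf3 and Irf8, and whether the 9 genes differ from these relatives was not tested.

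Upstream of the receptor, no interferon gene stood apart between groups. Of 13 ligand genes, 5 were higher and 8 lower, by at most 0.14 in either direction (Ifna4, -0.14 ± 0.07), and 0 had an unadjusted p under 0.05 by limma. Of these, 7 were no brighter than the median negative control row on any of the 8 arrays, among them Ifnb1 (3.38 ± 0.07 in control and 3.47 ± 0.06 in treated livers, mean ± SD, n = 4 each) and Ifng (3.27 ± 0.04 and 3.21 ± 0.09). A ligand made by few cells or in another organ would not be seen at this signal. Of 14 measured genes that activate IRF3 and IRF7 (18 listed), 10 were higher and 4 lower, with a median of 0.04. The RNA sensor gene Ifih1 was 0.54 ± 0.14 higher and Traf6, a ubiquitin ligase of Toll-like receptor signalling, 0.10 lower (-0.10 ± 0.04). The endosomal RNA receptor gene Tlr7 differed by 0.48 ± 0.21 and the kinase gene Tbk1 by 0.11 ± 0.05, both with an unadjusted limma p just above 0.05. The smallest limma adjusted p of the list was 0.341.

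Of the 12 inhibitors of the pathway, 8 were higher and 4 lower, with a median of 0.03. Usp18, which binds IFNAR2 and is itself interferon-induced, was 1.66 ± 0.26 higher, whereas Socs1, the kinase inhibitor, differed by 0.08 ± 0.07, Socs3 by -0.07 ± 0.15 and the phosphatase gene Ptpn2 by 0.08 ± 0.04. The groups did not overlap for Usp18 and Ptpn2, both higher, against 2.52% of all genes in that direction. Of the 12, Usp18 alone had an unadjusted p under 0.05 by limma, against 4.26% of all genes for the upward direction. The limma adjusted p of Usp18 was 0.194.

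Downstream, the target genes of ISGF3 were higher. Of the 33 measured (34 listed), 32 were higher, 30 with an unadjusted p under 0.05 by limma, against 4.26% of all genes, and in 27 the groups did not overlap, against 2.52%. Their median log2 difference was 0.71, beside the 0.30 and 0.44 of Stat2 and Irf9, and 0 passed over all genes. The 4 with the smallest p were Usp18, the RNA-binding Ifit1 (1.61 ± 0.24), its partner gene Ifit3 (0.99 ± 0.14) and Dhx58 (0.67 ± 0.10), each with a limma adjusted p of 0.194; Usp18 and Ifih1 count in this list and in one above. Of 24 measured targets of interferon gamma and IRF1 (28 listed), 22 were higher, 11 with an unadjusted p under 0.05 by limma. The groups were apart in 8, in some of them by only 0.0007 or less, and the median of the 24 was 0.36. The log2 differences of the 24 ran from -0.04 to 0.87. Of these, the 4 with the smallest p were the guanylate-binding protein gene Gbp3 (0.87 ± 0.19), Irgm1 (0.61 ± 0.09), the chemokine gene Cxcl11 (0.35 ± 0.07) and the peptide transporter gene Tap1 (0.37 ± 0.09). Response elements as searched above were found in 51.9% of the 27 windows of ISGF3 targets in the RefSeq table and in 55.0% of the 20 windows of interferon gamma targets, against 8.33% of the 12 windows of the 9 genes and 3.44% of all.

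**Figure D3:**
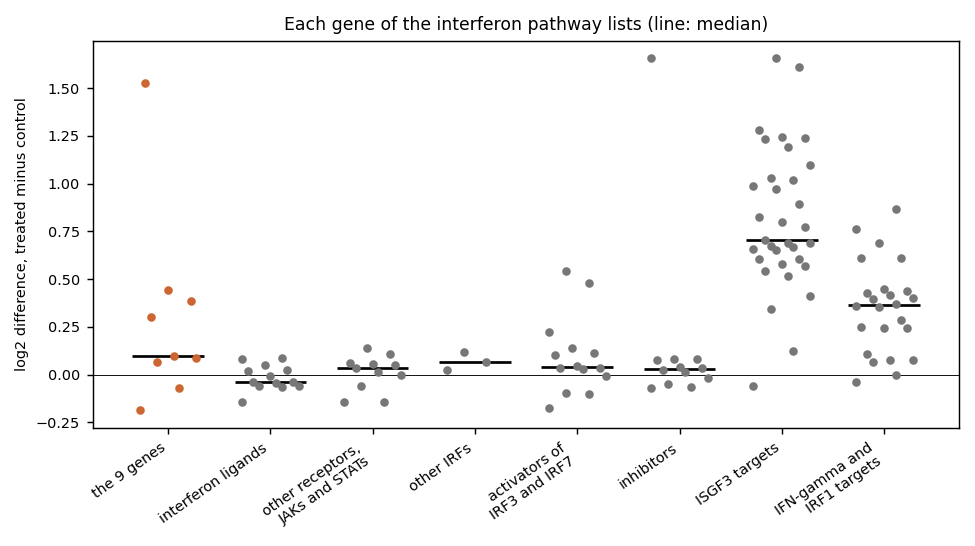
Log2 difference (treated minus control) of each measured gene in the lists of the interferon pathway, with a line at the median of each list. Ligands, other receptors, other IRFs and most activators and inhibitors lie near 0, while the ISGF3 targets (median 0.71) and the interferon gamma and IRF1 targets (median 0.36) lie above it, and the 9 genes spread between.

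Livers differed within each group too. The ISGF3 target score, the mean over the 33 genes of the signal minus each gene's mean over 8 livers, was -0.59, -0.25, -0.71 and -0.08 in controls 1 to 4 and 0.32, 0.22, 0.76 and 0.32 in treated livers 1 to 4. Control livers 2 and 4 were thus the higher controls for the score, for Irf7 and for Irf9, and treated liver 3 was the highest of all 8 for each. The orders were not the same throughout: treated liver 2, the lowest treated liver for the score and for Irf7, was the second highest treated liver for Irf9, and Stat2 was highest in treated liver 4.

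As a description over the same 8 arrays, which share the group difference, the protein-coding genes most like each of Irf7, Irf9 and Stat2 were sought among 18170 by Pearson's r. For Irf7 they were Gbp3 (r = 0.994, Spearman's rho = 0.976), the nucleic acid sensor gene Zbp1 (0.990, rho = 1.00) and Oas1a (0.987, rho = 0.976). For Irf9 they were Usp18 (r = 0.997, rho = 0.976), Ifit1 (0.979, rho = 0.976) and Ddx60 (0.977, rho = 0.952). For Stat2 they were Rasl2-9 (r = 0.989, rho = 0.952), which itself differed by only 0.13 ± 0.04, the helicase gene Dhx58 (0.982, rho = 0.952) and Oas2 (0.970, rho = 0.952). By general knowledge all of these but Rasl2-9 are interferon-inducible. With 8 arrays and so many candidates, high values of r arise readily.

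**Figure D4:**
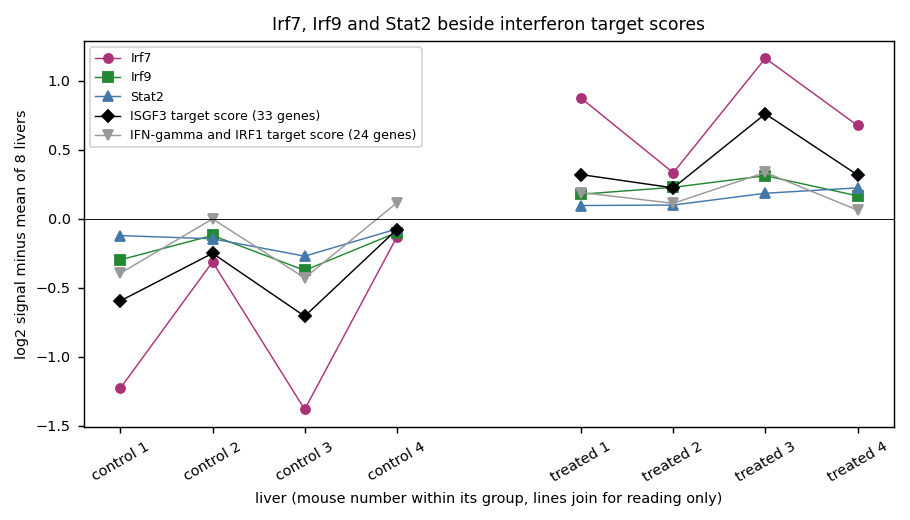
Log2 signal of Irf7, Irf9 and Stat2 minus the gene's mean over 8 livers, beside the mean of the same quantity over 33 ISGF3 targets and 24 interferon gamma and IRF1 targets, for each liver. Control livers 1 and 3 are low and treated liver 3 high for Irf7 (6.77, 6.62 and 9.16 before centring), and Stat2 moves over the narrowest range.

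Markers of the cells these livers could hold were set beside the 9 genes. Over all genes, an unadjusted limma p under 0.05 was seen in 4.26% for the upward and 3.37% for the downward direction. The groups did not overlap in 2.52% upward and 1.89% downward. All 10 hepatocyte markers were above the median negative control row on every array, 3 of them were higher in treated livers and 1, Hnf4a, was lower with an unadjusted limma p under 0.05 (-0.24 ± 0.10), with summed linear signals of 83929 to 86212 in controls and 81147 to 90959 in treated livers. Of 14 markers of macrophages and Kupffer cells 13 were higher, 2 of them with an unadjusted p under 0.05 by limma (Mpeg1, 0.80, and Timd4, 0.69), and 1 was at background throughout, with summed signals of 1844 to 3867 in controls and 2889 to 5846 in treated livers. Their score was -0.16, 0.03, -0.78 and 0.07 in controls and 0.62, -0.27, 0.32 and 0.16 in treated livers. Control liver 3, the lowest for this score, was also the lowest control for each of the 9 genes except Irf3, for which it was the highest. Treated liver 2, the lowest treated score, was the lowest treated liver for Irf8 and Irf7 only. The part of macrophages in these differences was not tested; without control liver 3, the log2 differences were 1.32 for Irf7, 0.39 for Irf9 and 0.26 for Stat2.

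Conventional dendritic cell markers were higher in 3 of 9 (4 of the 9 at or below the median negative control row on all arrays), with summed signals of 361 to 457 in controls and 310 to 358 in treated livers. Of these, Cd207, the Langerhans and dendritic cell lectin gene, was lower in every treated liver (5.60 to 6.46) than in any control (6.86 to 7.65), by -1.22 ± 0.22 on the log2 scale (limma adjusted p = 0.202). Cd207 was the brightest marker of this list in the controls, so the lower sums in treated livers rest largely on this 1 gene. The other markers of the list differed by -0.09 (Cd209a) to 0.14 (Clec9a). Plasmacytoid dendritic cell markers were higher in 2 of 8, with summed signals of 256 to 308 in controls and 252 to 274 in treated livers. B cell markers were higher in 4 of 6, with 171 to 187 and 176 to 200. In each of these 2 lists, 1 marker was at or below the median negative control row on all arrays. The plasmacytoid marker Siglech, from the cell type known for making interferon alpha, differed by 0.02 ± 0.04. Its means, 4.61 in controls and 4.635 in treated livers, were close to the medians of the negative control rows (4.32 to 4.48). All 8 plasmacytoid markers lay below the 95th percentile of those rows, so a change in these cells could go unseen. Of 8 neutrophil markers 1 was higher; their score was highest in control liver 1, at 1.62 against -0.44 to -0.15 in the other controls. Of 8 stellate cell markers 5 were higher, with summed signals of 1623 to 1865 in controls and 1724 to 3442 in treated livers. The collagen genes Col1a1 (6.88 to 7.01 in controls, 7.65 to 9.96 in treated livers, difference 1.62 ± 0.41) and Col3a1 (6.56 to 7.13 and 7.23 to 9.03, difference 1.22 ± 0.35) had separate groups, with limma adjusted p of 0.342 and 0.406, and Reln was lower (-0.29 ± 0.09) with overlapping groups. The stellate score was highest in treated liver 3 (0.79), the liver highest for Irf7 and Irf9. Without treated liver 3 the log2 differences were 1.39 for Irf7 and 0.41 for Irf9. Of 8 sinusoidal endothelial markers 7 were lower, with a median of -0.25. An unadjusted limma p under 0.05 was seen in 3 of these (Clec4g, -0.53 ± 0.19, Tek, -0.33 ± 0.12, and Stab1, -0.20 ± 0.07), against 3.37% of all genes in the downward direction. T and NK cell markers were higher in 5 of 10 and bile duct markers in 0 of 5. In each of these lists, 2 markers were at or below the median negative control row on all arrays. The part of these cells in the differences was not tested.

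**Figure D5:**
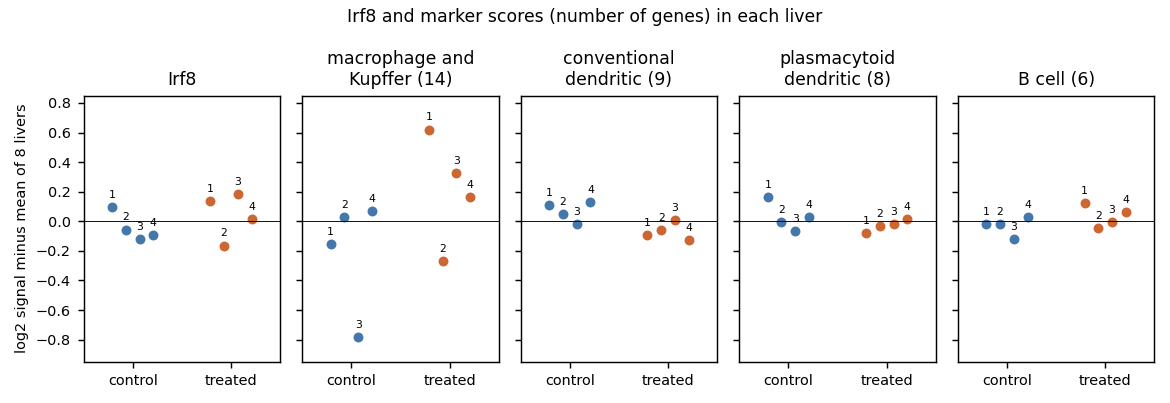
Irf8 (log2 signal minus its mean over 8 livers) and the mean of the same quantity over marker genes of macrophages, dendritic cells and B cells, for each numbered liver. The macrophage score spreads most, from -0.78 in control liver 3 to 0.62 in treated liver 1, while Irf8 and the other scores stay close to 0 in both groups.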

How the data were processed

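RNA from 8 livers was measured on 8 Affymetrix arrays. The authors deposited log2 signals made with RMA, per the submitters' processing notes, and the sources used here give no software version, build or filter. Per the labels' protocols, RNA was extracted with TRIzol and biotinylated. Of 72688 deposited log2 rows, 6732 array controls were left out. The 31080 probe sets that the platform annotation assigns to exactly 1 gene (symbols updated through Entrez IDs) gave 30627 genes, each with its brightest probe set over the 8 arrays.

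Groups were compared with limma 3.58.1 in R 4.3.3 (default eBayes moderation, a two-sided test and no covariates) and Benjamini-Hochberg adjustment over all genes at 0.05. The fit was tested on simulated data. The difference within 3 pairs of genes was compared by exact permutation over 70 assignments. The array medians ran from 5.04 to 5.12, and 4 arrays per group limit the precision. The titles number the mice, and each array counted as 1 mouse. Same-numbered mice did not deviate together (r = -0.15 to -0.04 over 15314 genes), so no pairing was used.

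The 9 genes and all gene lists were chosen with earlier results of these data known, so their counts are descriptions. Every one of the 9 is named. Of each pathway list up to 4 genes with the smallest p could be named, with direct counterparts of the 9, and of each marker list up to 3. For each of the 9 with separate groups, the 3 genes most alike in Pearson's r were named. Socs3 was named after its value was seen. Alternatives were trend and robust moderation, array weights, 2 filters on dim genes, the mean of probe sets, quantile normalization, median centring, the replicate number as a block, a threshold of 0.1 on the adjusted p, and 8 fits without 1 array each. Python 3.11.15 with pandas 2.3.3, numpy 2.4.6 and matplotlib 3.10.9 made tables and plots. Promoter and microRNA sequences are RefSeq's (GRCm38.p6), used for sequence only, since the files name no build.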

Additional observations from a re-analysis of the deposited data

Results flagged for a closer look

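Of 268 groups of 4 livers examined for a single liver far from the other 3 (genes of the pathway lists and list scores), 17 were flagged by a gap of more than Dixon's 95% critical share of the group's range, or 6.34%, while chance flags about 1 in 20. Among the 9 genes, Ifnar2 stood apart in treated liver 1 (8.90, others 8.76 to 8.78) and Irf1 in control liver 3 (6.81, others 7.33 to 7.43).

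Of their relatives, Stat5b stood apart in control liver 1 (8.64, others 9.15 to 9.16), Irf2 in control liver 4 (7.998, others 8.24 to 8.29), Irf4 in treated liver 4 (4.70, others 4.52 to 4.54) and Irf5 in treated liver 1 (6.84). Of the inhibitors, Socs1 stood apart in treated liver 3 (6.28), Socs3 in control liver 1 (7.27) and Pias1 in treated liver 4 (7.64).

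Of the target genes, Bst2 was at 7.77 in control liver 1 against 10.2 to 10.6 in the other controls. Mx2 was low in control liver 3 (5.53). In treated liver 3, Eif2ak2 (7.54), Lgals3bp (10.3) and Cxcl9 (8.67) stood high, and Irgm1 did in treated liver 4 (8.56). Of the list scores, the T and NK cell score was high in control liver 4 (0.34) and the neutrophil score in control liver 1 (1.62).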

How the results depend on the processing

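No direction of the 9 genes reversed under any of the 16 alternative fits, and none of the 9 passed the adjusted threshold in any of them. By limma, Irf9 had adjusted p from 0.150 to 0.463, Stat2 from 0.156 to 0.463 and Irf7 from 0.156 to 0.542 over those fits, the lowest with array weights. Unadjusted p was under 0.05 in all 16 for these 3 genes, in 14 for Ifnar1, in 10 for Irf1, in 1 for Ifnar2 and in 0 for Tyk2, Irf3 and Irf8. Leaving out 1 liver gave 0 to 1 genes past the threshold over all genes (1 without control liver 4) and 0 to 1 of the 9 with all treated livers below all controls (Ifnar1, without control liver 3 or treated liver 3). With an adjusted p under 0.1, 0 genes and 0 of the 9 were called. With the replicate number as a block, 0 genes were called, and the adjusted p was 0.463 for Irf1, Irf9 and Stat2 and 0.481 for Irf7 by limma, so the block changed no call; no mouse correlated best with its own number. The median of the ligands was 0.02 without control liver 1 and that of the inhibitors 0.06 without treated liver 2. The count of the 9 with all treated livers above all controls was 3, and 4 without control liver 1 (with Ifnar2) or treated liver 3 (with Irf1). Signals within the range of the negative control rows limit what can be said of the ligands, Irf8 and Tyk2. The same holds for Irf9, Irf1, Irf3 and Irf7 in the livers named above.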
